A study of Mus musculus with 9 samples.

Results

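Cadherins are calcium-dependent adhesion proteins of the cell surface, and the transcripts of 38 genes of this superfamily were measured in RNA bound to Pum2 in the embryonic mouse cortex. They were taken by name: 23 cadherin genes (Cdh followed by a number), 12 protocadherin genes outside the 3 protocadherin clusters and the 3 Celsr genes, out of 22180 genes with a symbol of their own on the array. A gene with more than 1 row in the table was read from the row with the highest mean over all arrays. The rule uses no measured difference.

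Classical cadherins bind the same kind of cadherin on the next cell with their outer repeats and are anchored inside the cell to actin through the catenins. In the developing cortex they hold the radial precursors together at the ventricle, and different type II cadherins and delta-protocadherins mark different regions, layers and tracts of neurons. Celsr proteins, the vertebrate relatives of Drosophila Flamingo, combine cadherin repeats with a receptor of the adhesion G protein-coupled kind and orient cells and axons within a sheet. Pum2 belongs to the Pumilio proteins, which attach to short motifs in mRNAs and hold back their translation.

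All RNA came from embryonic cortex of the CD1 strain, wild type, at stage E12/13, with no allele or agent added. The input group was total RNA with no antibody, the IgG group was RNA recovered with normal rabbit IgG, and the Pum2 group was RNA recovered with a rabbit antibody to Pumilio2. Each group had 3 biological replicates, hybridised singly to the Mouse Gene 2.0 ST array, 9 arrays in all. The labels do not say how many embryos made a replicate, nor whether a precipitate and an input of the same number shared a lysate. The whole tissue was lysed, so the cell type that a transcript came from cannot be told.

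Values are log2 signals from RMA, which scales the arrays to each other, so a difference is relative to the rest of the RNA on the array and not an amount recovered. The deposited values were not fully level. Their median over all rows was 5.48 to 5.52 in input, 5.54 to 5.57 in IgG and 5.37 to 5.40 in Pum2 arrays. Over the genes tested it was 6.0547 to 6.0593, 6.0673 to 6.0828 and 6.0953 to 6.1038. A value with ± is a difference of group means and its standard error on the log2 scale, with n = 3 arrays in each group. Genes were called below an adjusted p of 0.05 in a limma fit of all 9 arrays and 22180 genes. An exact permutation test of 3 against 3 arrays cannot give a two-sided p below 0.1, so every call rests on limma's pooled spread. Signals of different genes come from different probes and are not compared with each other.

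The cortical identity genes Emx1, Emx2, Lhx2 and Pax6 had group means between 8.08 and 10.6. Markers of other cells were measured as well. By the background line described below, Aldh1a2 (1 of 10 genes for meninges and mesenchyme), Ptprc (1 of 8 for microglia and macrophages) and Gad1 and Nkx2-1 (2 of 7 for the ganglionic eminence) were near background, and the others were not. The mean signal of the 10 meningeal and mesenchymal markers was 6.69 to 6.76 in input, 6.80 to 7.01 in IgG and 7.36 to 7.40 in Pum2 arrays. For the 10 endothelial markers it was 7.05 to 7.22, 7.06 to 7.37 and 7.47 to 7.57, and for the 10 radial precursor markers 9.38 to 9.44, 9.40 to 9.49 and 9.76 to 9.82. The 9 markers of young neurons stood at 10.2 to 10.3, 10.4 to 10.5 and 10.3 to 10.4. The 6 erythroid markers ranged from 7.995 to 8.41, 7.74 to 8.57 and 7.55 to 8.12, the 8 microglial ones from 6.01 to 6.17, 5.87 to 6.08 and 6.06 to 6.10, and the 7 of the ganglionic eminence from 5.65 to 5.87, 5.69 to 5.87 and 5.96 to 6.10.

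**Figure D1:**
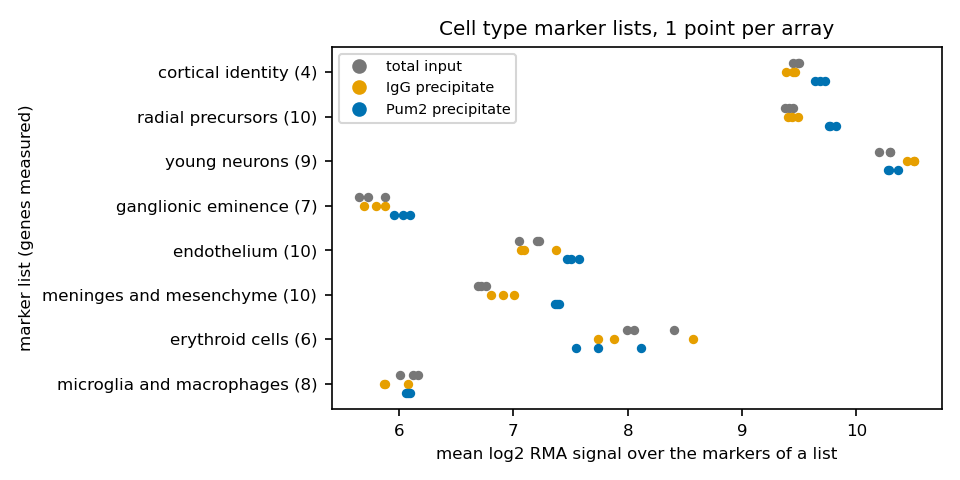
Mean log2 signal over the markers of each of 8 cell type lists (x axis), 1 point for each array, with input in grey, IgG in orange and Pum2 in blue. The 3 Pum2 arrays lie above all others in 5 of the 8 lists: cortical identity (9.64 to 9.73), radial precursors (9.76 to 9.82), ganglionic eminence (5.96 to 6.10), endothelium (7.47 to 7.57) and meninges and mesenchyme (7.36 to 7.40).

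Background was set by genes that this tissue is not known to use. The line was 5.32, the 95th percentile of the mean signals of 1390 olfactory and vomeronasal receptor genes. A gene was near background where none of its 3 group means reached it. Of the 38 genes 7 (18.4%) were near background, against 7836 (35.3%) of all genes. These were Cdh9, Cdh15, Cdh16, Cdh17, Cdh18, Cdh19 and Cdh23, all of them cadherins and none of them a protocadherin or Celsr gene. The count depends on the line: it was 3 with the 90th percentile, 14 with the 99th and 12 with the median of all genes as the line.

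Many cadherin-superfamily genes were higher after precipitation, some of them already with nonspecific IgG. In IgG over input 15 of the 38 genes (39.5%) were higher and 0 lower, where 8.25% of all genes were higher and 9.72% lower. In Pum2 over input 23 (60.5%) were higher and 0 lower, against 21.6% and 13.1% of all genes. In Pum2 over IgG, the comparison with the method's own background, 13 (34.2%) were higher and 1 lower, against 19.4% and 11.4%. At an unadjusted p under 0.05 the counts of lower genes were also 0 in both comparisons with input. The median difference over the 38 genes was 0.21 in IgG over input, 0.39 in Pum2 over input and 0.17 in Pum2 over IgG, beside medians over all genes of 0.016, 0.065 and 0.043. Fewer of the 38 genes than of all genes were near background (18.4% against 35.3%). Among genes at or above the median level, 13 of 24 of them were higher in Pum2 over IgG, beside 4344 of 11090 genes. At that level the counts were 20 and 4555 in Pum2 over input, and 15 and 2086 in IgG over input. The 3 comparisons share arrays pairwise, so their counts are not independent of each other.

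The Pum2 over IgG count was the least firm. It was 8 higher genes without IgG replicate 2 or without Pum2 replicate 1, where 3750 and 3594 of all 22180 genes were higher. With quantile normalization run again it was 10 higher and 3 lower, beside 3488 higher among 6515 calls over all genes. With each array centred on its brighter genes it was 7 higher and 4 lower, beside 2790 higher among 6862 calls over all genes. That centring lowered the median Pum2 over IgG difference of all genes by 0.13 and took the share of all calls that were higher from 63.0% to 40.7% (Pum2 over IgG) and from 62.3% to 49.7% (Pum2 over input).

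**Figure D2:**
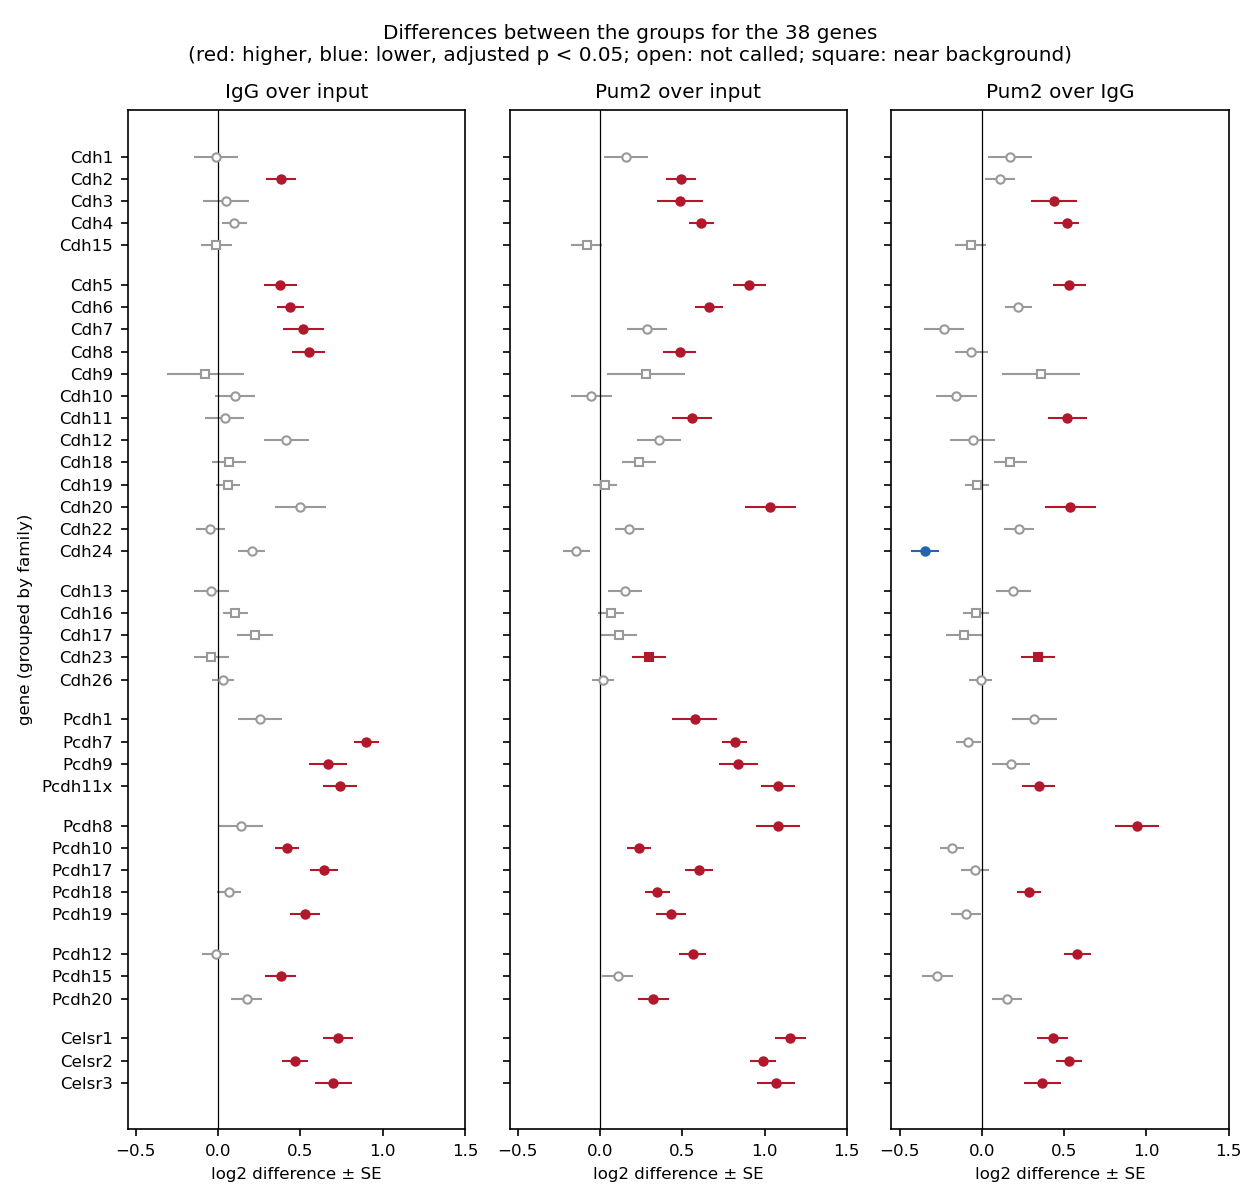
Log2 difference ± standard error (x axis) for each of the 38 genes (y axis, by family) in the 3 comparisons, n = 3 arrays in each group. Filled symbols passed an adjusted p of 0.05, red for higher and blue for lower, and squares are the 7 genes near background. Pcdh7 has the largest difference in IgG over input (0.90), Celsr1 in Pum2 over input (1.16) and Pcdh8 in Pum2 over IgG (0.94), and Cdh24 is the only gene called lower (-0.35).

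The Celsr genes were higher at both steps, where 8.25% (IgG over input) and 19.4% (Pum2 over IgG) of all genes were higher. Celsr1, which sets planar polarity in epithelia and the neural tube, read 10.29, 10.201 and 10.19 in input, 10.82, 11.08 and 10.96 in IgG and 11.395, 11.502 and 11.25 in Pum2 arrays. Its 3 groups did not overlap, with the Pum2 arrays highest. It was 2.23-fold higher in Pum2 precipitates than in input (1.16 ± 0.092, limma adjusted p = 8.15e-06), 0.73 ± 0.092 higher in IgG than in input (adjusted p = 0.000615) and 0.43 ± 0.092 higher with Pum2 than with IgG (adjusted p = 0.00521). Celsr2, which acts in dendrite growth and in the cilia of ependymal cells, read 10.41, 10.42 and 10.35 in input, 10.84, 10.93 and 10.803 in IgG and 11.41, 11.48 and 11.27 in Pum2 arrays. The groups again did not overlap. The differences were 0.99 ± 0.079 for Pum2 over input (1.99-fold, adjusted p = 8.15e-06), 0.47 ± 0.079 for IgG over input (adjusted p = 0.00281) and 0.53 ± 0.079 for Pum2 over IgG (adjusted p = 0.000617). Celsr3, needed for the major axon tracts of the forebrain, read 7.65, 7.38 and 7.47 in input, 8.01, 8.19 and 8.42 in IgG and 8.65, 8.57 and 8.498 in Pum2 arrays. Its Pum2 arrays lay above both other groups, and the IgG arrays above the input arrays. Celsr3 was 1.07 ± 0.11 higher in Pum2 than in input (adjusted p = 4.82e-05) and 0.701 ± 0.11 higher in IgG than in input (adjusted p = 0.00226). Over IgG it rose by 0.37 ± 0.11 (adjusted p = 0.0325), a call that ended on leaving out Pum2 replicate 3 (0.405), Pum2 replicate 2 (0.37), Pum2 replicate 1 (0.33), IgG replicate 2 (0.36) or IgG replicate 1 (0.27). It also ended with quantile normalization run again (0.26, adjusted p = 0.0947), with centring on the brighter genes (0.24, adjusted p = 0.119) and with all rows of the table tested (0.37, adjusted p = 0.0526). Of the 10 radial precursor markers, none of them near background, 6 were higher and 0 lower in Pum2 over IgG (limma, 0 lower also at an unadjusted p under 0.05, median 0.36). They gave 7 higher and 2 lower in Pum2 over input (median 0.51) and 1 higher and 2 lower in IgG over input (median 0.059). The 9 young neuron markers, also none of them near background, gave 1 higher and 4 lower in Pum2 over IgG (median -0.21). They gave 4 and 3 in Pum2 over input (median 0.047) and 4 and 1 in IgG over input (median 0.20). The part of either list in the results for the Celsr genes was not tested.

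**Figure D3:**
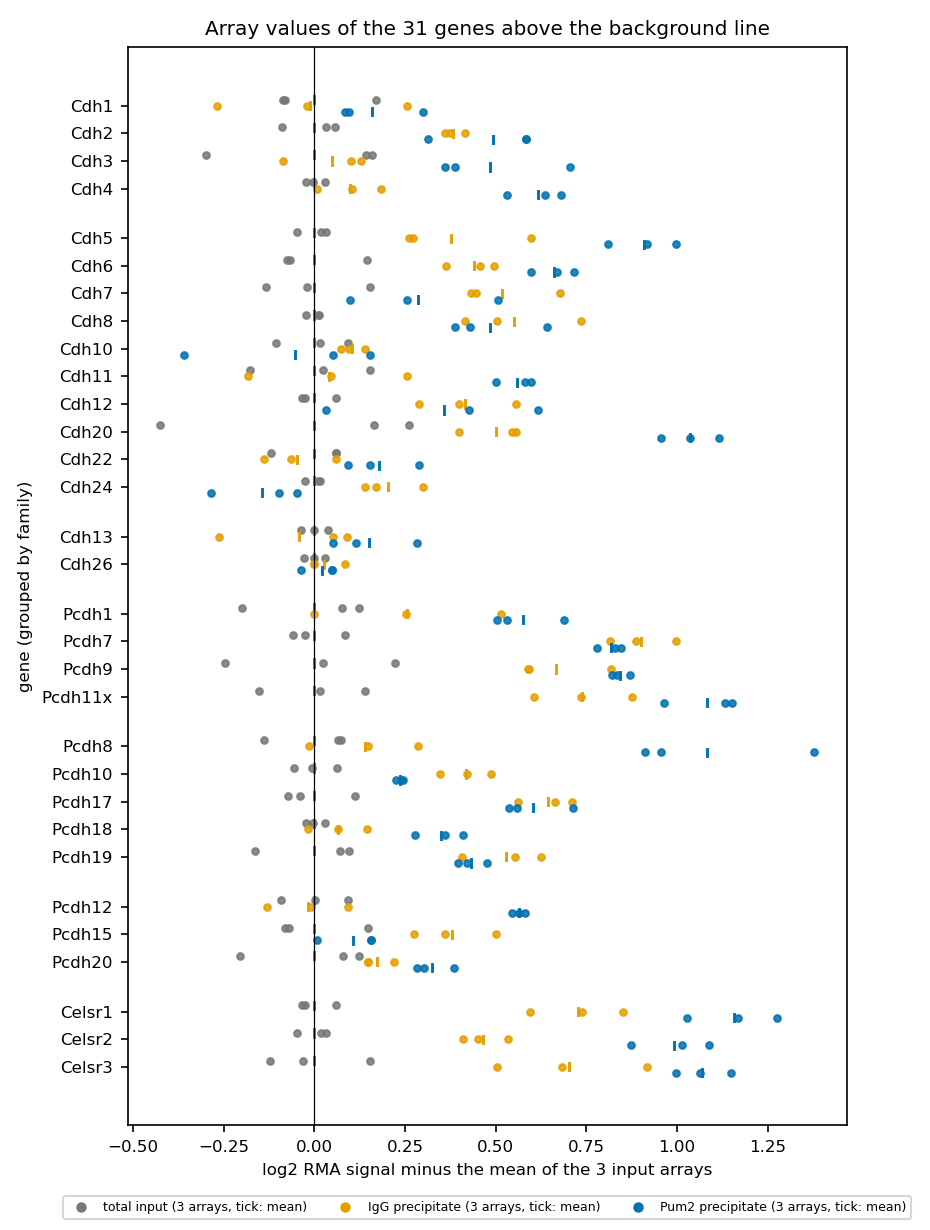
Log2 signal of each array minus the mean of the 3 input arrays of the same gene (x axis) for the 31 genes above the background line (y axis, by family). Points are arrays (input grey, IgG orange, Pum2 blue) and ticks are group means. In Celsr1, Celsr2 and Celsr3 the 3 groups are separate. In Pcdh7 the IgG and Pum2 arrays lie together (signals before subtraction 8.22 to 8.44, against 7.38 to 7.53 in input). In Pcdh8 the Pum2 arrays (6.99 to 7.46 before subtraction) stand apart from both other groups.

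Of the 4 delta-1 protocadherins, adhesion proteins with long cytoplasmic tails, all were higher with Pum2 than in input and 3 were already higher with IgG. Over all genes these shares were 21.6% and 8.25%. Pcdh7 had the largest IgG over input difference of the 38 genes. It read 7.53, 7.42 and 7.38 in input, 8.26, 8.33 and 8.44 in IgG and 8.27, 8.22 and 8.29 in Pum2 arrays. Both kinds of precipitate lay wholly above the input and overlapped each other. The difference was 0.9001 ± 0.077 in IgG over input (1.87-fold, limma adjusted p = 0.000138) and 0.82 ± 0.077 in Pum2 over input (adjusted p = 2.17e-05), and Pum2 over IgG stood at -0.083 ± 0.077 (adjusted p = 0.478). Pcdh9, a protocadherin of the developing brain, read 7.22, 7.02 and 6.75 in input, 7.59, 7.59 and 7.82 in IgG and 7.87, 7.83 and 7.82 in Pum2 arrays. All precipitates lay above the input. It rose by 0.67 ± 0.12 in IgG over input (adjusted p = 0.0033) and by 0.84 ± 0.12 in Pum2 over input (adjusted p = 0.000276). Its Pum2 arrays lay above the IgG arrays by less than the second decimal, but the difference did not pass (0.18 ± 0.12, adjusted p = 0.309).

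Pcdh11x, the X-linked delta-1 gene, read 5.82, 5.65 and 5.94 in input, 6.54, 6.41 and 6.68 in IgG and 6.96, 6.94 and 6.77 in Pum2 arrays. The 3 groups were separate, input lowest and Pum2 highest. It was 2.12-fold higher in Pum2 than in input (1.08 ± 0.103, adjusted p = 2.35e-05) and 0.74 ± 0.103 higher in IgG than in input (adjusted p = 0.001). Its rise over IgG of 0.34 ± 0.103 (adjusted p = 0.0282) did not pass on leaving out Pum2 replicate 2 (0.32), Pum2 replicate 1 (0.31), IgG replicate 2 (0.28) or IgG replicate 1 (0.34). It also failed with quantile normalization run again (0.299, adjusted p = 0.053) and with centring on the brighter genes (0.22, adjusted p = 0.142). Pcdh1, known also from airway epithelium, read 5.72, 5.67 and 5.396 in input, 6.11, 5.59 and 5.85 in IgG and 6.28, 6.13 and 6.1 in Pum2 arrays. The Pum2 arrays were above all input arrays and overlapped 1 IgG array. It rose over input with Pum2 (0.57 ± 0.13, adjusted p = 0.00698), while IgG over input (0.25 ± 0.13, adjusted p = 0.242) and Pum2 over IgG (0.32 ± 0.13, adjusted p = 0.105) did not pass. Without IgG replicate 1 the last of these was called at 0.45.

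The 5 delta-2 protocadherins, which bind regulators of actin, were all higher with Pum2 than in input, but only 2 of them were higher than with IgG. Over all genes 21.6% were higher in Pum2 over input and 19.4% in Pum2 over IgG. Pcdh8, also known as arcadlin, takes part in removing N-cadherin from synapses after activity. It read 6.15, 5.94 and 6.14 in input, 6.06, 6.23 and 6.36 in IgG and 7.03, 6.99 and 7.46 in Pum2 arrays. Input and IgG arrays overlapped, and the Pum2 arrays stood clear of both. It had the largest Pum2 over IgG difference of the 38 genes, 0.94 ± 0.13 or 1.92-fold (limma adjusted p = 0.000436), and was 1.08 ± 0.13 higher than in input (adjusted p = 0.000124). IgG over input was 0.14 ± 0.13 (adjusted p = 0.539). Pcdh18 read 8.396, 8.43 and 8.38 in input, 8.38, 8.55 and 8.47 in IgG and 8.76, 8.68 and 8.81 in Pum2 arrays. Its pattern over the groups was the same at a smaller size, with the Pum2 arrays above both controls. The differences were 0.28 ± 0.073 over IgG (adjusted p = 0.014, not called at 0.16 with centring on the brighter genes or at 0.17 with quantile normalization run again), 0.35 ± 0.073 over input (adjusted p = 0.00377) and 0.065 ± 0.073 in IgG over input (adjusted p = 0.614).

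In the other 3 delta-2 genes both kinds of precipitate were above input and no Pum2 over IgG difference passed. Pcdh17, a protein of presynaptic sites, read 7.78, 7.63 and 7.59 in input, 8.23, 8.33 and 8.37 in IgG and 8.22, 8.38 and 8.2 in Pum2 arrays. IgG and Pum2 arrays overlapped. It rose by 0.64 ± 0.085 in IgG over input (adjusted p = 0.000726) and 0.602 ± 0.085 in Pum2 over input (adjusted p = 0.000301), with Pum2 over IgG at -0.042 ± 0.085 (adjusted p = 0.766). Pcdh19, an X-linked epilepsy gene whose protein pairs with N-cadherin, read 9.21, 8.95 and 9.19 in input, 9.67, 9.52 and 9.74 in IgG and 9.54, 9.51 and 9.59 in Pum2 arrays. Again every precipitate lay above every input. The differences were 0.53 ± 0.092 (adjusted p = 0.00318), 0.43 ± 0.092 (adjusted p = 0.00404) and -0.097 ± 0.092 (adjusted p = 0.49) in the same order. Pcdh10, which guides growing axons, read 8.64, 8.69 and 8.76 in input, 9.12, 9.04 and 9.18 in IgG and 8.94, 8.93 and 8.92 in Pum2 arrays. Here the Pum2 arrays lay between the others, above all input and below all IgG arrays. IgG over input was 0.42 ± 0.071 (adjusted p = 0.00281) and Pum2 over input 0.24 ± 0.071 (adjusted p = 0.0251), the latter not called on leaving out Pum2 replicate 3 (0.24), Pum2 replicate 2 (0.23), Pum2 replicate 1 (0.23), Input replicate 2 (0.23) or Input replicate 1 (0.21). The same call ended with quantile normalization run again (0.15, adjusted p = 0.147) and with centring on the brighter genes (0.15, adjusted p = 0.159). Pum2 over IgG was -0.18 ± 0.071 (adjusted p = 0.0808). It was called lower in 4 other settings, at -0.18 among genes above the median level or with an intensity trend and robust prior, at -0.300 with quantile normalization run again and at -0.31 with centring on the brighter genes.

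Of the remaining protocadherins, Pcdh12 is a gene of the vascular endothelium. It read 6.27, 6.18 and 6.08 in input, 6.17, 6.05 and 6.27 in IgG and 6.76, 6.74 and 6.72 in Pum2 arrays. The Pum2 arrays were above all others, and input and IgG overlapped. Pum2 exceeded IgG by 0.58 ± 0.082 (limma adjusted p = 0.000439) and input by 0.56 ± 0.082 (adjusted p = 0.000373), with IgG over input at -0.016 ± 0.082 (adjusted p = 0.92). Pcdh15, which forms the tip link of sensory hair cells together with Cdh23, read 5.72, 5.95 and 5.73 in input, 6.08, 6.16 and 6.304 in IgG and 5.96, 5.96 and 5.81 in Pum2 arrays. The IgG arrays were highest. It was higher in IgG than in input (0.38 ± 0.094, adjusted p = 0.0186), but this call ended on leaving out IgG replicate 3 (0.32), Input replicate 3 (0.34) or Input replicate 1 (0.34). Its other row did not share it (-0.077), and the mean of both rows gave 0.15. Pum2 over input (0.11 ± 0.094, adjusted p = 0.438) did not pass. Pum2 over IgG (-0.27 ± 0.094, adjusted p = 0.0513) also did not, except without Input replicate 2 (-0.27) or IgG replicate 1 (-0.32), with quantile normalization run again (-0.29) and with centring on the brighter genes (-0.40). The other row of Pcdh15 stood on the opposite side, at 0.26 ± 0.103 (adjusted p = 0.102 over all rows of the table). Pcdh20 read 5.57, 5.53 and 5.25 in input, 5.598, 5.67 and 5.598 in IgG and 5.73, 5.75 and 5.83 in Pum2 arrays. The 3 groups were separate but close. It rose with Pum2 over input by 0.32 ± 0.093 (adjusted p = 0.0206), not called on leaving out Pum2 replicate 3 (0.29, adjusted p = 0.0693) or Input replicate 3 (0.22, adjusted p = 0.0605). This call also ended with quantile normalization run again (0.28, adjusted p = 0.0551) and with centring on the brighter genes (0.24, adjusted p = 0.0644). It stood at 0.17 ± 0.093 in IgG over input (adjusted p = 0.255) and 0.15 ± 0.093 in Pum2 over IgG (adjusted p = 0.268).

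Among the 5 classical type I cadherins 2 (Cdh3 and Cdh4) were higher with Pum2 than with IgG, beside 19.4% of all genes. Cdh2, N-cadherin, is the main cadherin of the apical junctions of radial precursors. It read 11.58, 11.73 and 11.702 in input, 12.08, 12.03 and 12.04 in IgG and 12.25, 11.98 and 12.25 in Pum2 arrays. All precipitates lay above the input, and IgG and Pum2 overlapped. It exceeded the input by 0.49 ± 0.09 with Pum2 (limma adjusted p = 0.00156) and 0.38 ± 0.09 with IgG (adjusted p = 0.0143), the latter not called on leaving out Input replicate 1 (0.34, adjusted p = 0.0537). Pum2 over IgG did not pass (0.11 ± 0.09, adjusted p = 0.411). A further row of Cdh2 gave a different call in that comparison, 0.24 ± 0.067 (adjusted p = 0.0262 over all rows of the table), so the 2 rows disagree on it. Of the 10 radial precursor markers 6 were higher and 0 lower in Pum2 over IgG, and 7 higher and 2 lower in Pum2 over input. Over all genes 19.4% were higher and 11.4% lower in the first comparison, and 21.6% and 13.1% in the second. The part of these markers in the result for Cdh2 was not tested.

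Cdh4, R-cadherin, is a cadherin of the retina and of cortical cells. It read 8.87, 8.89 and 8.92 in input, 9.07, 8.99 and 8.898 in IgG and 9.42, 9.57 and 9.53 in Pum2 arrays. The Pum2 arrays stood above both controls, which overlapped. Pum2 exceeded IgG by 0.52 ± 0.076 (1.43-fold, adjusted p = 0.000546) and input by 0.62 ± 0.076 (adjusted p = 0.000126), and IgG over input was 0.098 ± 0.076 (adjusted p = 0.437). A dimmer row of Cdh4, with a mean signal of 5.69 against 9.13, did not share this (-0.46 ± 0.27 in Pum2 over IgG, adjusted p = 0.267), and the mean of both rows gave 0.026 over IgG and 0.068 over input, neither of them called. Cdh3, P-cadherin, lay just above the background line and read 5.04, 5.502 and 5.48 in input, 5.26, 5.47 and 5.44 in IgG and 6.05, 5.73 and 5.702 in Pum2 arrays. Pum2 arrays were again above both controls. It rose by 0.44 ± 0.14 over IgG (adjusted p = 0.038) and 0.48 ± 0.14 over input (adjusted p = 0.0211), with IgG over input at 0.048 ± 0.14 (adjusted p = 0.858). The first call ended on leaving out Pum2 replicate 2 (0.48), Pum2 replicate 1 (0.33), IgG replicate 3 (0.46), IgG replicate 2 (0.48) or IgG replicate 1 (0.37), and with centring on the brighter genes (0.31, adjusted p = 0.133) and with all rows of the table tested (0.44, adjusted p = 0.0618). The second ended on leaving out Pum2 replicate 1 (0.37, adjusted p = 0.0867) or Input replicate 1 (0.33, adjusted p = 0.066), and with centring on the brighter genes (0.398, adjusted p = 0.0604). Cdh1, E-cadherin of epithelia, read 5.69, 5.68 and 5.94 in input, 5.75, 5.501 and 6.02 in IgG and 5.85, 6.07 and 5.86 in Pum2 arrays. Its groups overlapped throughout and no comparison passed, with differences of 0.17 ± 0.13 over IgG, 0.16 ± 0.13 over input and -0.011 ± 0.13 in IgG over input. Cdh15, M-cadherin of muscle, was near background, at 4.99 to 5.34 over the 9 arrays.

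Many of the 13 type II cadherins are confined to particular brain regions. In Pum2 over IgG 3 were higher (23.1%) and 1 lower (7.7%), near the 19.4% and 11.4% of all genes. In Pum2 over input 5 were higher (38.5%, beside 21.6% of all genes) and in IgG over input 4 (30.8%, beside 8.25%). Cdh5, VE-cadherin of endothelial junctions, read 8.93, 8.87 and 8.95 in input, 9.18, 9.19 and 9.51 in IgG and 9.83, 9.91 and 9.73 in Pum2 arrays. The groups were separate, input lowest and Pum2 highest. Pum2 exceeded input by 0.91 ± 0.101 (1.88-fold, limma adjusted p = 6.51e-05) and IgG by 0.53 ± 0.101 (adjusted p = 0.00265). IgG exceeded input by 0.38 ± 0.101 (adjusted p = 0.0267), a call that ended on leaving out IgG replicate 3 (0.27), Input replicate 3 (0.39), Input replicate 2 (0.35) or Input replicate 1 (0.39), and with only the groups compared fitted (0.38, adjusted p = 0.0557) and with all rows of the table tested (0.38, adjusted p = 0.0514). The 10 endothelial markers moved in part with Cdh5 and Pcdh12. In Pum2 over IgG 4 were higher and 1 lower (median 0.38), in Pum2 over input 6 and 1 (median 0.57), and in IgG over input 1 and 1 (median -0.0077). None of the 10 was near background. Their part in both results was not tested.

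Cdh11, a cadherin of mesenchyme and also of neural cells, read 9.203, 9.07 and 8.87 in input, 9.096, 8.87 and 9.31 in IgG and 9.55, 9.63 and 9.65 in Pum2 arrays. Input and IgG arrays overlapped and the Pum2 arrays lay above both. It rose by 0.52 ± 0.12 over IgG (adjusted p = 0.00778) and 0.56 ± 0.12 over input (adjusted p = 0.00423), while IgG over input was 0.039 ± 0.12 (adjusted p = 0.863). Of the 10 meningeal and mesenchymal markers 1 (Aldh1a2) was near background. In Pum2 over IgG 6 were higher (median 0.51), in Pum2 over input 9 (median 0.67) and in IgG over input 3 (median 0.13). By limma 0 were lower in each, but 1 in IgG over input at an unadjusted p under 0.05. Over all genes 19.4%, 21.6% and 8.25% were higher in the same order. The part of these markers in the result for Cdh11 was not tested. Cdh20 read 5.98, 5.397 and 6.08 in input, 6.22, 6.37 and 6.38 in IgG and 6.86, 6.78 and 6.94 in Pum2 arrays. The 3 groups were separate. Pum2 exceeded input by 1.04 ± 0.16 (2.05-fold, adjusted p = 0.000455). It also exceeded IgG (0.54 ± 0.16, adjusted p = 0.0243), a call that ended on leaving out Pum2 replicate 3 (0.496), Pum2 replicate 1 (0.54), IgG replicate 2 (0.56) or IgG replicate 1 (0.49) and with centring on the brighter genes (0.41). IgG over input just missed the threshold (0.499 ± 0.16, adjusted p = 0.0511) and was called, at 0.499 to 0.63, without Input replicate 3, among genes above the median level, with an intensity trend and robust prior, and with centring on the brighter genes.

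Cdh6 and Cdh8, which mark regional borders and layers of the forebrain, rose with both antibodies. Cdh6 read 8.09, 7.87 and 7.87 in input, 8.44, 8.31 and 8.4 in IgG and 8.66, 8.61 and 8.54 in Pum2 arrays. Its groups were separate. The differences were 0.44 ± 0.084 in IgG over input (adjusted p = 0.00521) and 0.66 ± 0.084 in Pum2 over input (adjusted p = 0.000152). Pum2 over IgG was 0.22 ± 0.084 (adjusted p = 0.0724) and was called, at the same size, without Input replicate 1 or among genes above the median level. Cdh8 read 7.18, 7.21 and 7.21 in input, 7.701, 7.61 and 7.93 in IgG and 7.63, 7.84 and 7.59 in Pum2 arrays. IgG and Pum2 overlapped and both lay above input. It rose by 0.55 ± 0.1 in IgG over input (adjusted p = 0.00407) and 0.49 ± 0.1 in Pum2 over input (adjusted p = 0.00336), with Pum2 over IgG at -0.065 ± 0.1 (adjusted p = 0.688). Cdh7, first described in neural crest cells, read 7.31, 7.13 and 7.02 in input, 7.599, 7.58 and 7.83 in IgG and 7.66, 7.41 and 7.25 in Pum2 arrays. All IgG arrays lay above the input, and the Pum2 arrays overlapped both other groups. It rose in IgG over input by 0.52 ± 0.12 (adjusted p = 0.0146), not called on leaving out IgG replicate 3 (0.44, adjusted p = 0.057) or Input replicate 3 (0.45, adjusted p = 0.055). Pum2 over input (0.29 ± 0.12, adjusted p = 0.0996) and Pum2 over IgG (-0.23 ± 0.12, adjusted p = 0.193) did not pass. The first was called without Pum2 replicate 3 (0.38) and among genes above the median level (0.29), and the second, as lower, with centring on the brighter genes (-0.36).

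Cdh24 was the gene called lower. It read 8.01, 8.01 and 7.97 in input, 8.299, 8.14 and 8.17 in IgG and 7.71, 7.901 and 7.95 in Pum2 arrays. The Pum2 arrays lay below all others and the IgG arrays above all others. Pum2 over IgG was -0.35 ± 0.083 (1.27-fold lower, adjusted p = 0.00972), whereas Pum2 over input (-0.14 ± 0.083, adjusted p = 0.226) and IgG over input (0.203 ± 0.083, adjusted p = 0.131) did not pass. Cdh12, a cadherin of brain, read 5.32, 5.24 and 5.23 in input, 5.82, 5.55 and 5.66 in IgG and 5.29, 5.69 and 5.88 in Pum2 arrays. The IgG arrays lay above input, and the Pum2 arrays overlapped both. Neither IgG over input (0.41 ± 0.14, adjusted p = 0.0629) nor Pum2 over input (0.36 ± 0.14, adjusted p = 0.0684) passed, and both were called without Pum2 replicate 1 (0.41 and 0.52). IgG over input was also called without Pum2 replicate 3 (0.41), with only the groups compared fitted (0.41) and with centring on the brighter genes (0.45). Pum2 over IgG was -0.056 ± 0.14 (adjusted p = 0.809). Cdh10, found at synapses, read 7.36, 7.29 and 7.16 in input, 7.37, 7.41 and 7.35 in IgG and 7.42, 7.32 and 6.91 in Pum2 arrays. Its groups overlapped, with Pum2 replicate 3 lowest, and the 3 differences lay between -0.15 and 0.102. Cdh22 read 6.7, 6.88 and 6.88 in input, 6.68, 6.88 and 6.76 in IgG and 6.97, 7.11 and 6.91 in Pum2 arrays. Its Pum2 arrays were just above both controls, but Pum2 over IgG (0.23 ± 0.089, adjusted p = 0.0862) and Pum2 over input (0.18 ± 0.089, adjusted p = 0.163) did not pass, apart from the former among genes above the median level (adjusted p = 0.0373). Cdh9, Cdh18 and Cdh19 were near background and not called in any of the 3 comparisons.

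The 5 other cadherins do not carry the classical catenin-binding tail or are of divergent structure. Cdh13, T-cadherin, is held to the membrane by a lipid anchor. It read 6.77, 6.803 and 6.84 in input, 6.89, 6.54 and 6.86 in IgG and 6.92, 6.86 and 7.09 in Pum2 arrays. Its groups overlapped except that all Pum2 arrays exceeded the input arrays, and no difference passed (0.19 ± 0.105 over IgG, 0.15 ± 0.105 over input, -0.041 ± 0.105 in IgG over input). Cdh26, an epithelial cadherin, read 5.37, 5.34 and 5.401 in input, 5.45, 5.37 and 5.37 in IgG and 5.33, 5.42 and 5.42 in Pum2 arrays. The 9 arrays lay between 5.33 and 5.45, close to the background line. The kidney and intestinal cadherins Cdh16 and Cdh17 were near background and were not called. Cdh23, the partner of Pcdh15 in the tip link, was near background as well, but was called higher in Pum2 over IgG (0.34 ± 0.105, limma adjusted p = 0.032) and in Pum2 over input (0.298 ± 0.105, adjusted p = 0.0497). It read 4.501, 4.77 and 4.76 in input, 4.59, 4.54 and 4.77 in IgG and 4.996, 4.84 and 5.09 in Pum2 arrays. The first call ended on leaving out Pum2 replicate 3 (0.28), Pum2 replicate 1 (0.33), IgG replicate 2 (0.29) or IgG replicate 1 (0.32), and with centring on the brighter genes (0.21, adjusted p = 0.16) and with all rows of the table tested (0.34, adjusted p = 0.0511). The second ended on leaving out Pum2 replicate 3 (0.24), Pum2 replicate 1 (0.29), IgG replicate 2 (0.298), IgG replicate 1 (0.298), Input replicate 3 (0.34), Input replicate 2 (0.34) or Input replicate 1 (0.21). It also ended with only the groups compared fitted (0.298, adjusted p = 0.064), with an intensity trend and robust prior (0.298, adjusted p = 0.0608), with quantile normalization run again (0.26, adjusted p = 0.0666), with centring on the brighter genes (0.21, adjusted p = 0.169) and with all rows of the table tested (0.298, adjusted p = 0.0787). Both differences are those of a signal below the level that marks background here.

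Genes that work with the cadherins were compared in the same fit. Over all genes, 19.4% were higher and 11.4% lower in Pum2 over IgG. These shares were 21.6% and 13.1% in Pum2 over input, and 8.25% and 9.72% in IgG over input. Of 21 catenins and junction partners 9 were higher and 0 lower in Pum2 over IgG (1 lower at an unadjusted p under 0.05), 14 and 1 in Pum2 over input, and 6 and 2 in IgG over input (limma), with medians of 0.16, 0.35 and 0.16. Jup, plakoglobin, rose by 0.87 ± 0.071 over IgG and 0.701 ± 0.071 over input, and Numb, which binds cadherin complexes and inhibits Notch, by 0.85 ± 0.102 over IgG, while it was lower in IgG than in input (-0.51 ± 0.102). Nectin2, an adhesion protein of the same junctions, rose by 0.78 ± 0.086 over IgG. Ctnnb1, beta-catenin, rose by 0.78 ± 0.072 in Pum2 over input and by 0.43 ± 0.072 in IgG over input. The 7 genes of the Fat and Dachsous group, giant cadherins of tissue polarity with the Golgi kinase Fjx1, gave 3 higher in Pum2 over IgG and 5 in each comparison with input (0 lower in all 3, also at an unadjusted p under 0.05). Their medians were 0.24, 0.73 in Pum2 over input and 0.65 in IgG over input. Fat4 rose by 0.76 ± 0.076 in IgG over input and 0.73 ± 0.076 in Pum2 over input, Fat1 by 0.71 ± 0.071 and 0.96 ± 0.071, and Dchs1 by 0.71 ± 0.073 and 0.99 ± 0.073. In Pum2 over IgG Fjx1 rose by 0.72 ± 0.073, Dchs1 by 0.28 ± 0.073 and Fat1 by 0.25 ± 0.071. Of the 7 genes 2 were near background.

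Of 12 measured planar cell polarity genes, the pathway of the Celsr proteins, 5 were higher and 2 lower in Pum2 over IgG (median -0.049). In Pum2 over input 5 were higher and 0 lower (0 lower at an unadjusted p under 0.05, median 0.34), and in IgG over input 4 and 0 (0 lower unadjusted, median 0.19). Dvl2 rose by 0.81 ± 0.11 and Ptk7 by 0.59 ± 0.098 over IgG. The receptor gene Fzd3, which acts with Celsr3 in axon tracts, was lower with Pum2 than with IgG (-0.53 ± 0.11, limma adjusted p = 0.0037). Fzd3 was higher in IgG than in input (0.46 ± 0.11, adjusted p = 0.0142). Its means were 10.22 in input, 10.68 in IgG and 10.14 in Pum2 arrays. Dvl3 was also lower with Pum2 than with IgG (-0.27 ± 0.072, adjusted p = 0.0174). Vangl2, the membrane partner of Celsr1, rose by 0.51 ± 0.068 in IgG over input and 0.41 ± 0.068 in Pum2 over input. The 3 calsyntenin genes and Ret were the 4 of 9 cadherin-related genes higher with Pum2 in both comparisons, with Clstn1 at 0.803 ± 0.101 over IgG and 0.94 ± 0.101 over input. None of the 9 passed in IgG over input by limma (1 at an unadjusted p under 0.05). All 9 desmosomal cadherins were near background and limma called 0 of them in all 3 comparisons, and 0 also at an unadjusted p under 0.05.

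The clustered protocadherins, whose many similar isoforms give neurons individual surfaces, were read from 23 rows with 1 symbol, 8 of them near background. Their close sequences can share probes, so single members are uncertain. In IgG over input 11 of 23 were higher, in Pum2 over input 13, and in Pum2 over IgG 2, with 0 lower in each by limma. At an unadjusted p under 0.05 the lower ones were 1, 0 and 0. Over all genes 8.25%, 21.6% and 19.4% were higher in the same order, and 9.72%, 13.1% and 11.4% lower. The medians over the 23 were 0.52, 0.51 and 0.0495. Pcdhb22 rose by 0.95 ± 0.13 in IgG over input and Pcdhb20 by 0.65 ± 0.102, while Pcdhb8 was the larger of the 2 rises over IgG (0.96 ± 0.16, adjusted p = 0.0013) and Pcdhb17 the other (0.42 ± 0.14, adjusted p = 0.0415).

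**Figure D4:**
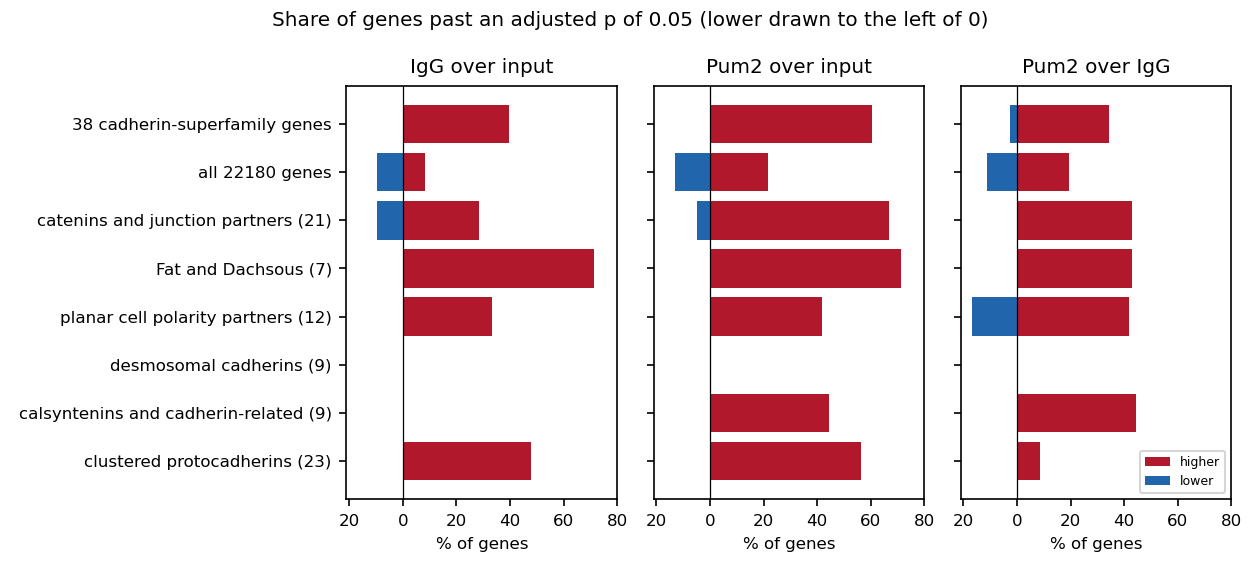
Share of genes past an adjusted p of 0.05 (x axis, percent, higher in red to the right and lower in blue to the left of 0) for the 38 cadherin-superfamily genes, all 22180 genes and 6 lists of related genes, with the number measured in brackets. The 38 genes reach 39.5% higher in IgG over input, 60.5% in Pum2 over input and 34.2% in Pum2 over IgG, beside 8.25%, 21.6% and 19.4% of all genes.

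Genes that are neighbours in the genome did not always have like values. In RefSeq order of protein-coding genes 8 pairs of the 38 genes lay side by side. Cdh8, Cdh11 and Cdh5 follow each other, and in Pum2 over IgG they stood at -0.065, 0.52 and 0.53, and in IgG over input at 0.55, 0.039 and 0.38. Cdh3 and Cdh1, also neighbours, stood at 0.44 and 0.17 in Pum2 over IgG. Pcdh20 and Pcdh9 stood at 0.17 and 0.67 in IgG over input, but were alike in Pum2 over IgG (0.15 and 0.18). In Pum2 over input Cdh8, Cdh11 and Cdh5 all stood above input, at 0.49, 0.56 and 0.91. The other pairs are not described here. Differences between neighbours were not tested.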

How the data were processed

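Input, IgG and Pum2 RNA from 9 samples (3 biological replicates a group, per the labels) were amplified and hybridised to Mouse Gene 2.0 ST arrays. The deposited values are log2 signals that the authors made with RMA in Affymetrix Expression Console, per the submitters' processing notes. Their versions and the genome build: not given in the sources used here.

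Of 41345 rows 23521 had 1 symbol, 1814 several and 16010 none in the platform annotation. Rows with 1 symbol gave 22180 genes, each read from its brightest row. All 38 genes matched RefSeq (GRCm38.p6) by Entrez ID, which was used for names and gene order only. One limma 3.58.1 model (R 4.3.3) of 9 arrays and 3 groups, with 6 residual degrees of freedom, gave differences and Benjamini-Hochberg adjusted p-values over all genes. The script was tested on simulated data. The number of arrays limits the precision. P-values measure the spread between these samples only.

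The genes, the lists of related and marker genes and the tests were chosen with earlier results of these data known. Any of the 38 genes could be named, and from each list at most the 4 with the largest moderated t in a comparison. Tried alternatives were the replicate number as a block, the compared groups alone, genes above the median level, an intensity trend, a second quantile normalization, centring on brighter genes, row means, all rows, other background lines and each array left out. A search for Pumilio motifs in transcripts was planned and not run, and no sequence was used here.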

Additional observations from a re-analysis of the deposited data

How the results depend on the processing

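No called difference of the 38 genes reversed under the 17 alternatives. Of the 14 calls in Pum2 over IgG 7 were kept under all of them (Cdh5, Cdh11, Cdh24, Pcdh8, Pcdh12, Celsr1 and Celsr2), of the 23 in Pum2 over input 18, and of the 15 in IgG over input 11. Over all 22180 genes, 3594 to 4157 were higher in Pum2 over IgG with arrays left out in turn. Among the 38 genes that count was then 8 to 14 genes higher and 1 to 2 lower (2 without Input replicate 2 or IgG replicate 1). It was 7 higher and 4 lower with centring on the brighter genes, and 2, 2 and 3 lower among genes above the median level, with an intensity trend and robust prior, and with quantile normalization run again. The causes were not tested. In the setting above the median level fewer genes were fitted (11090), 24 of them among the 38. The count of genes higher was 19 to 23 in Pum2 over input and 12 to 17 in IgG over input, with 0 lower throughout. The genes near background were 3, 14 and 12 with the 90th percentile, the 99th percentile and the median of all genes as the line.

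Same-numbered arrays of different groups had correlated deviations of 0.0015 to 0.14 in 9 pairs, and other arrays of -0.13 to 0.041 in 18, so the numbers were not taken to pair the samples. In 16 of 18 cases the best match had its own number, a hint from the data and not from the design. With the replicate block 11 genes were higher in Pum2 over IgG (Cdh3 at an adjusted p of 0.0577 and Celsr3 at 0.0525 by limma were not called), 23 in Pum2 over input and 16 in IgG over input (Cdh20 was added, adjusted p = 0.0416).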
